A study of Mus musculus with 12 samples.

Results

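The genes described here are the mouse orthologs of 31 genes named at human Alzheimer's disease risk loci, leaving out Trem2 and its direct signalling partners. They were found as the rows of the count table whose identifiers map to the 31 listed symbols, and all 31 were present among 56980 gene identifiers. From what is known of mouse brain cell types, 7 of them (Cd33, Abi3, Blnk, Ms4a6b, Ms4a6c, Ms4a6d and Rin3) were counted as myeloid, meaning that microglia and macrophages are their main source, and the other 24 as non-myeloid. Tspan14, Sppl2a and Cass4, which several cell types express, were counted as non-myeloid and moved to the myeloid side in an alternative.

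RNA was sequenced from the hippocampus of male mice in 12 libraries, each with an identifier of its own in the labels. The 4 groups of 3 libraries combined 2 genotypes with 2 ages. Mice lacking Trem2 on top of an App NL-G-F knock-in are called Trem2-KO, those carrying that knock-in and intact Trem2 are called App-KI, and each genotype was sampled at 9 and at 3 months. Nothing further in the labels says that each library is a separate animal, so p-values measure the spread between these libraries. Every mouse carried the App allele, a humanised and mutated amyloid precursor gene under its own promoter, and no library came from a mouse without it, so age and amyloid load cannot be told apart. The labels do not say whether the Trem2 deletion is restricted to a cell type. In whole tissue, fewer cells of a type and less RNA per cell cannot be told apart either.

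Human genetics links these genes to late-onset Alzheimer's disease through a few shared processes. One group acts in endocytosis and sorting of membrane proteins (Bin1, Picalm, Sorl1, Cd2ap, Rin3, Rabep1). Another works in innate immune cells as surface receptors or adaptors (Cd33, Blnk and the Ms4a6 genes), and others handle lipids and extracellular proteins (Clu, Abca7) or cut proteins in or at the membrane and in the matrix (Sppl2a, Aph1b, Ace, Adamts1, Adamts4). Microglia, the resident macrophages of the brain, multiply and change their gene expression around amyloid plaques, and Trem2 is the receptor through which much of that response runs.

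The libraries held between 14627892 and 24594655 counts each, and all 31 members passed the filter on low counts. A count of 3, the limit that a count of 0 allows, corresponded to 0.122 to 0.205 CPM, the count scaled to the size of its library, a limit for counting error only. Trem2 checked the labels: it stood at 3.62, 3.83 and 3.77 CPM in Trem2-KO libraries against 55.6, 52.6 and 49.8 CPM in App-KI libraries at 9 months, and at 1.85, 1.93 and 2.17 CPM in Trem2-KO against 10.4, 8.05 and 9.17 CPM in App-KI libraries at 3 months. All 9 hippocampal neuron markers were detected in every library, the lowest value being 12.1 CPM for Spink8. Choroid plexus, the tissue in the ventricle beside the hippocampus, differed between libraries of the same group: the summed CPM of 10 of its markers ran from 53.1 to 3211. Markers of meningeal fibroblasts summed to 259 to 411 CPM in Trem2-KO mice at 9 months and to 163 to 201 CPM in App-KI mice of that age, 155 to 235 CPM in Trem2-KO mice at 3 months and 172 to 226 CPM in App-KI mice at 3 months.

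Levels of the members spanned a wide range. Per kilobase of exon, Clu was the highest with a mean of 387 CPM over the 12 libraries, followed by Ptk2b with 144 CPM and Bin1 with 67.9 CPM. The 7 myeloid members held ranks 23 to 29 of the 31, between 1.27 CPM per kilobase for Blnk and 0.307 CPM per kilobase for Ms4a6c. Only Epha1, with 0.160 CPM per kilobase, and Cass4, with 0.0772, ranked below them. Counts of a myeloid member in 1 library ran from 6 for Ms4a6c to 226 for Blnk, so their errors are wide beside those of Clu or Bin1.

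The stretches of DNA just before the start of the myeloid members are shown because 5 of these 7 genes rose with age in App-KI mice (Cd33 and Blnk among those printed) while Ms4a6b and Ms4a6c did not pass the test. Macrophage promoters often carry the sequence GGAAGT, the core that the ETS family of transcription factors, PU.1 among them, binds. In the 250 bases before the RefSeq start (RefSeq on build GRCm38.p6, both strands searched), GGAAGT was found for Blnk, Cd33, Ms4a6b and Ms4a6c among the 5 myeloid members that matched the promoter table, and not for Rin3. It was found for 5 of 17 matched non-myeloid members and in 19.7% of all 32851 promoter windows of that length. A member counted if any window listed for it held a match, whereas the percentage is over single windows, so they are not directly comparable. The longer GAGGAAGT was in none of the 22 matched members and in 2.44% of all windows. The whole window of Cd33 (chr7:43533172-43533421, minus strand) is given first, then windows of 30 bases around a match in Blnk (chr19:40994405-40994434, minus strand), Ms4a6b (chr19:11518462-11518491, plus strand) and Ms4a6c (chr19:11469338-11469367, plus strand), with the match, on either strand, in capitals.
Cd33: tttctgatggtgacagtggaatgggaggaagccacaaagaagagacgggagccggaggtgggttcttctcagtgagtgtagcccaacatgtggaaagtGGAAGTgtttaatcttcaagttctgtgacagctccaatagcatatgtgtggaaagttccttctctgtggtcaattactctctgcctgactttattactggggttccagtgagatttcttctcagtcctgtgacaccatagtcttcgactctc
Blnk: ttgggacaaacaGGAAGTagtgctcagtca
Ms4a6b: ctttctgatataGGAAGTacaggcacaata
Ms4a6c: gactttctgatataGGAAGTacaggcacag
The windows of Ms4a6b and Ms4a6c place the printed match in nearly the same surroundings, and over 175 aligned bases of their 250-base windows 149 were identical (85.1%). Ms4a6b held a further match, read on the other strand, in a window that is not printed (chr19:11518504-11518533). A match describes the letters only, since no binding was measured here.

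The comparison of 9 with 3 months in App-KI mice asked which risk gene orthologs changed between these ages with Trem2 present. Of the 7 myeloid members 5 rose (Cd33, Abi3, Blnk, Ms4a6d and Rin3), and of the 24 non-myeloid members 2 rose (Clu and Picalm), while none of the 31 fell. Over all 19152 genes, 6.66% were called in either direction, 3.95% higher and 2.71% lower. A call here and below is an adjusted p under 0.05 in the quasi-likelihood test of edgeR, with the Benjamini-Hochberg correction made over all genes. The median log2 fold change was 0.86 over the myeloid members, 0.10 over the non-myeloid members and -0.00113 over all genes tested. Counting Tspan14, Sppl2a and Cass4 as myeloid gave a myeloid median of 0.53.

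Cd33, an inhibitory receptor of the Siglec family that binds sialic acid, stood at 11.5, 12.1 and 11.3 CPM at 9 months against 7.13, 5.99 and 6.78 CPM at 3 months in App-KI mice. All 3 older libraries lay above all 3 younger ones, as did those of 5 of the 7 myeloid members and of 11.2% of all genes, and the log2 fold change was 0.80 ± 0.13 (SE, 3 libraries per group; adjusted p = 0.000387 by edgeR). Blnk, a cytosolic adaptor best known from B cell receptor signalling and also present in macrophages, stood at 10.3, 12.1 and 10.6 CPM at 9 months against 6.52, 5.88 and 5.76 CPM at 3 months. Its groups did not overlap either (0.86 ± 0.13, edgeR adjusted p = 0.000166). Of the B cell markers, Ms4a1 and Pax5 had no count in 7 libraries each and Cd79b none in 1, while Cd79a was counted in all 12 libraries at 0.0964 to 0.527 CPM; their part in the Blnk values was not tested. Rin3, an exchange factor that activates the early endosome GTPase Rab5, stood at 5.70, 5.36 and 6.04 CPM at 9 months against 3.47, 2.74 and 2.59 CPM at 3 months (0.95 ± 0.20, edgeR adjusted p = 0.00515).

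Abi3, an adaptor of the complex that builds branched actin, had the largest log2 fold change of the 31 in this comparison. Its level was 3.06, 4.50 and 3.61 CPM at 9 months against 1.47, 1.60 and 1.41 CPM at 3 months in App-KI mice (1.32 ± 0.23, edgeR adjusted p = 0.000972). This gene is uncertain, because 70.1% of its annotated exon bases overlap Zfp652 on the opposite strand. The strand setting of the counting is not given in the sources used here. Summed over the 12 libraries, Zfp652 had 8143 counts and Abi3 520. Zfp652 had a log2 fold change of 0.18 ± 0.07 and was not called (edgeR adjusted p = 0.189). Phospho1 and Gngt2 overlap 41.1% and 5.63% of the Abi3 exon bases on that opposite strand too, with 57 and 282 counts. Ms4a6d, a membrane protein of the MS4A cluster, stood at 2.95, 3.22 and 2.10 CPM at 9 months against 1.51, 1.08 and 1.12 CPM at 3 months (1.14 ± 0.26, edgeR adjusted p = 0.00691). The 3 libraries of each age did not overlap, but without the second 9-month library the edgeR adjusted p was 0.0505.

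The other Ms4a6 genes did not follow. Ms4a6b stood at 2.64, 2.90 and 2.23 CPM at 9 months and at 2.16, 2.57 and 2.0 CPM at 3 months, with overlapping groups (0.22 ± 0.24). Ms4a6c stood at 0.422, 0.697 and 0.590 CPM at 9 months and at 0.571, 0.799 and 0.683 CPM at 3 months (-0.25 ± 0.44), also overlapping. These close relatives share sequence: 5.85% of the 50-base stretches of Ms4a6c transcripts occur in Ms4a6b, and 53.1% of the Ms4a6c exon bases overlap another transcript, BE692007, on the opposite strand, so the split of reads between them is uncertain.

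**Figure D1:**
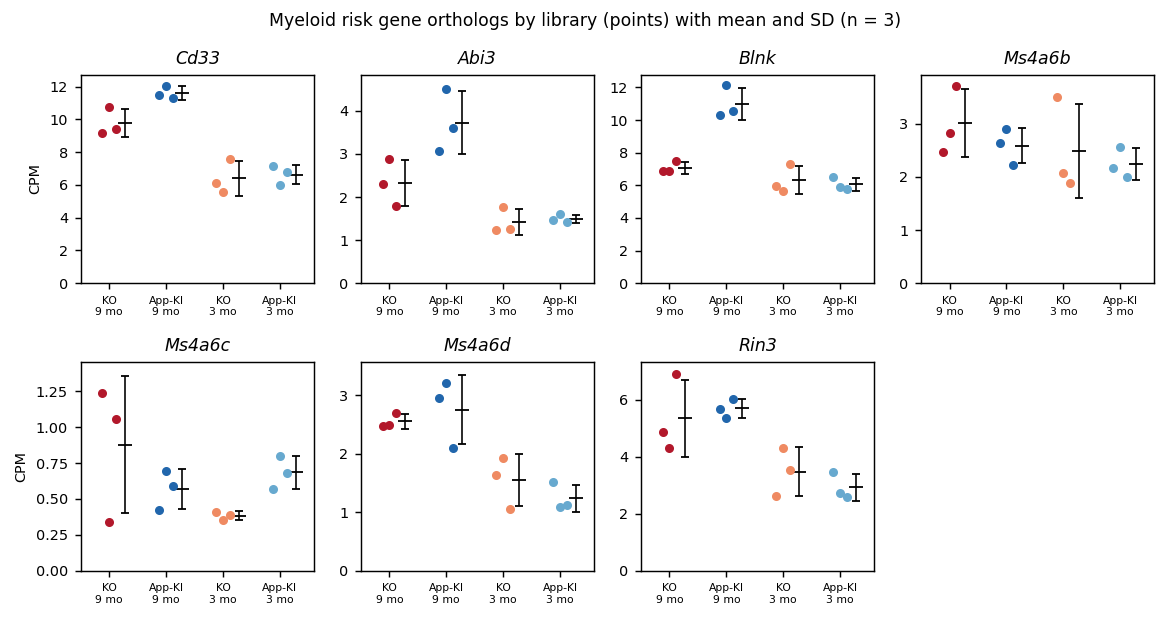
CPM of the 7 myeloid members (y axis, from 0) in each library (points; 3 per group) with the group mean and SD beside them, for Trem2-KO and App-KI mice at 9 months and at 3 months. Blnk shows 6.85 to 7.48 CPM in Trem2-KO against 10.3 to 12.1 CPM in App-KI at 9 months, while the Ms4a6b groups overlap.

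In Trem2-KO mice, 9 against 3 months, 1 of the 7 myeloid members rose (Cd33) and 1 of the 24 non-myeloid members (Clu), where 8.70% of all genes were called, 5.68% higher and 3.02% lower. The myeloid median was 0.61 and the non-myeloid median 0.06. Cd33 stood at 9.18, 10.7 and 9.44 CPM at 9 months against 6.10, 5.54 and 7.57 CPM at 3 months, without overlap (0.61 ± 0.13, edgeR adjusted p = 0.00599). With the meningeal fibroblast score as a covariate, the log2 fold changes of Cd33 and Clu were 0.70 and 0.44 and were not called (edgeR adjusted p = 0.32 and 0.143). The score did not overlap between these ages, at 4.25 to 4.72 against 3.16 to 3.75 (mean log2 CPM). That fit can therefore hardly separate score from age, and it called 55 genes in place of 1667. Abi3, Ms4a6d and Rin3 had log2 fold changes of 0.70 ± 0.24, 0.72 ± 0.25 and 0.59 ± 0.20 and were not called (edgeR adjusted p = 0.0794, 0.0777 and 0.0682). Their groups did not overlap between ages, as those of 13.5% of all genes did not in the higher direction. In Rin3 the levels were 4.85, 4.313 and 6.89 CPM at 9 months and 2.60, 4.308 and 3.52 CPM at 3 months, so that the nearest libraries of the 2 ages were almost level. Rin3 was called without 3-month replicate 2 or without 9-month replicate 2 (edgeR adjusted p = 0.0471 and 0.0499), and Abi3 without 9-month replicate 3 (edgeR adjusted p = 0.041). Rin3 was also called with no filter on low counts (edgeR adjusted p = 0.024).

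Blnk was not called with age without Trem2: it stood at 6.88, 6.85 and 7.48 CPM at 9 months and 5.96, 5.67 and 7.28 CPM at 3 months, with overlapping groups (0.16 ± 0.13, edgeR adjusted p = 0.51). Ms4a6b stood at 2.47, 2.83 and 3.71 CPM at 9 months and at 3.49, 2.07 and 1.88 CPM at 3 months (0.30 ± 0.24). Ms4a6c stood at 1.24, 0.335 and 1.06 CPM at 9 months and at 0.411, 0.352 and 0.386 CPM at 3 months, where the second older library lay below all the younger ones (1.20 ± 0.45, edgeR adjusted p = 0.0999). Without that library Ms4a6c was called (1.58, edgeR adjusted p = 0.0223). Markers of macrophages at the brain's borders moved the same way in these mice: their 8 genes summed to 41.5 to 55.4 CPM at 9 months and to 21.3 to 26.0 CPM at 3 months, none of them was at 0 in any library, and 4 of the 8 were called higher. Their part in the Ms4a6c values was not tested.

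Setting Trem2-KO against App-KI mice at 9 months asked how these genes differed without Trem2 at the later age. Blnk was the single member called among 31, where 2.08% of all genes were called, 0.684% higher and 1.39% lower. Its level was 6.88, 6.85 and 7.48 CPM in Trem2-KO mice against 10.3, 12.1 and 10.6 CPM in App-KI mice, so all 3 knockout libraries lay below all 3 others (-0.64 ± 0.13, edgeR adjusted p = 0.0089). Without the second App-KI library the edgeR adjusted p was 0.0506. With the meningeal fibroblast score, which is higher in all 3 knockout libraries of this age, as a covariate, the log2 fold change of Blnk was -0.77 with an edgeR adjusted p = 0.429. The score, a mean log2 CPM, ran from 4.25 to 4.72 in Trem2-KO and from 3.14 to 3.78 in App-KI mice. That fit can therefore hardly separate score from genotype, and it called 32 genes in place of 398. The part of fibroblasts in the Blnk values was not tested.

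The remaining myeloid members did not pass the test at 9 months. Over all 7 myeloid members the median log2 fold change was -0.12, over the 24 non-myeloid members -0.05 and over all genes tested 0.00659. Cd33 (-0.25 ± 0.13) and Abi3 (-0.67 ± 0.22) had all 3 Trem2-KO libraries below all 3 App-KI libraries, with edgeR adjusted p = 0.404 and 0.143. Abi3 stood at 2.29, 2.88 and 1.80 CPM in Trem2-KO mice against 3.06, 4.50 and 3.61 CPM in App-KI mice. Rin3 (-0.09 ± 0.19), Ms4a6d (-0.12 ± 0.24), Ms4a6b (0.20 ± 0.24) and Ms4a6c (0.62 ± 0.42) had overlapping groups. Ms4a6d stood at 2.47, 2.49 and 2.705 CPM in Trem2-KO mice and at 2.95, 3.22 and 2.10 CPM in App-KI mice. Counting both classes, the Trem2-KO libraries lay wholly below the App-KI libraries for 7 members and wholly above for 0, against 9.04% and 8.28% of all genes; the 4 non-myeloid ones were Picalm, Ank3, Tspan14 and Sppl2a, which were not called.

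At 3 months none of the 31 members was called between genotypes by edgeR, where 0.59% of all genes were, and DESeq2 called 0. An unadjusted edgeR p under 0.05 was found for 2 of the 31 members and for 2151 of all 19152 genes. The myeloid median was 0.06 and the non-myeloid median -0.02. Cd33 stood at 6.10, 5.54 and 7.57 CPM in Trem2-KO mice and at 7.13, 5.99 and 6.78 CPM in App-KI mice. Blnk stood at 5.96, 5.67 and 7.28 CPM in Trem2-KO mice and at 6.52, 5.88 and 5.76 CPM in App-KI mice, with overlap in both genes. Rin3 stood at 2.60, 4.31 and 3.52 CPM in Trem2-KO and at 3.47, 2.74 and 2.59 CPM in App-KI mice, Abi3 at 1.23, 1.76 and 1.25 CPM in Trem2-KO and at 1.47, 1.60 and 1.41 CPM in App-KI mice, both overlapping. Ms4a6d stood at 1.64, 1.93 and 1.06 CPM in Trem2-KO and at 1.51, 1.08 and 1.12 CPM in App-KI mice, also with overlap. Over the 31 members the Trem2-KO libraries lay wholly above the App-KI libraries for 1 (Iqck) and wholly below for 3 (Ms4a6c, Abca7 and Aph1b), against 8.65% and 8.94% of all genes. Ms4a6c stood at 0.352 to 0.411 CPM in Trem2-KO against 0.571 to 0.799 CPM in App-KI mice (-0.82 ± 0.47, edgeR adjusted p = 0.54), which rests on counts of 6 to 28 per library across the study.

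The interaction of genotype and age asks whether the age difference itself differed between genotypes. Its median was -0.35 over the myeloid and -0.01 over the non-myeloid members. None of the 31 members passed edgeR's test, where 0.266% of all genes did, 0.0574% with a positive and 0.209% with a negative value. DESeq2 called 0 of them. An unadjusted edgeR p under 0.05 was found for 2 of the 31 members and for 1156 of all 19152 genes. The 2 members were Blnk (-0.69 ± 0.19, edgeR unadjusted p = 0.00125, adjusted p = 0.21) and Ms4a6c (1.45 ± 0.63, edgeR unadjusted p = 0.0308, adjusted p = 0.729). So Cd33 called in both genotypes, and Abi3, Blnk, Ms4a6d and Rin3 called in App-KI mice alone, are not shown to differ between genotypes in their response to age. Besides Trem2 itself, the deleted gene, Inpp5d and Grn were called for this interaction among 20 tested genes at other Alzheimer risk loci, both negative.

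The myeloid members were set against 20 pan-microglial markers, which are not members, to show how far they moved with microglial RNA as a whole. In App-KI mice at 9 against 3 months all 20 markers rose, with a median of 1.22, and in Trem2-KO mice 17 rose, with a median of 0.59. Between genotypes at 9 months 17 of 20 fell (median -0.75), and at 3 months edgeR called 0, with 4 at an unadjusted p under 0.05 and a median of -0.11. Their summed level was 1046 to 1135 CPM in Trem2-KO and 1799 to 1934 CPM in App-KI mice at 9 months, and 668 to 687 CPM in Trem2-KO and 699 to 738 CPM in App-KI mice at 3 months. Each member was then given per 1000 CPM of those markers in the same library. That scale moves with its denominator: because the marker sum differed between groups, a gene with an unchanged CPM shifts on it. The median log2 ratio of means over all 19152 tested genes was 0.78 between genotypes at 9 months and 0.09 at 3 months, -1.38 for age in App-KI mice and -0.69 for age in Trem2-KO mice. For age in App-KI mice 92.6% of all genes were lower without overlap, and between genotypes at 9 months 82.3% were higher without overlap, so the direction of a member's ratio is no result of its own. The ratios are given as a description with no test.

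For age in App-KI mice the median over the 7 myeloid members was -0.52, and 5 of the 7 were lower without overlap. Cd33 stood at 6.39, 6.24 and 5.92 per 1000 marker CPM at 9 months and at 10.2, 8.12 and 9.23 at 3 months, and Blnk at 5.72, 6.27 and 5.54 at 9 months and at 9.33, 7.97 and 7.84 at 3 months. Abi3 overlapped, at 1.70, 2.33 and 1.89 per 1000 at 9 months and 2.10, 2.17 and 1.93 at 3 months, as did Ms4a6d. Between genotypes at 9 months the median over the 7 was 0.67, and Cd33, Ms4a6b, Ms4a6d and Rin3 were higher without overlap while Abi3, Blnk and Ms4a6c overlapped. Cd33 stood at 8.77, 9.45 and 8.48 per 1000 in Trem2-KO mice and at 6.39, 6.24 and 5.92 in App-KI mice, and Blnk at 6.58, 6.04 and 6.72 in Trem2-KO mice and at 5.72, 6.27 and 5.54 in App-KI mice. Border macrophage markers, of which none is in the denominator, were positive for 8 of 8 between genotypes at 9 months, with a median log2 fold change of 0.82. By edgeR 0 of the 8 passed, though 6 had p under 0.05 before adjustment, and they summed to 41.5 to 55.4 CPM in Trem2-KO and 26.9 to 38.5 CPM in App-KI mice. Their part in the members' values was not tested. The median over the 7 was 0.15 between genotypes at 3 months and -0.07 for age in Trem2-KO mice, which was 0.13 without Trem2-KO 3-month replicate 2.

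**Figure D2:**
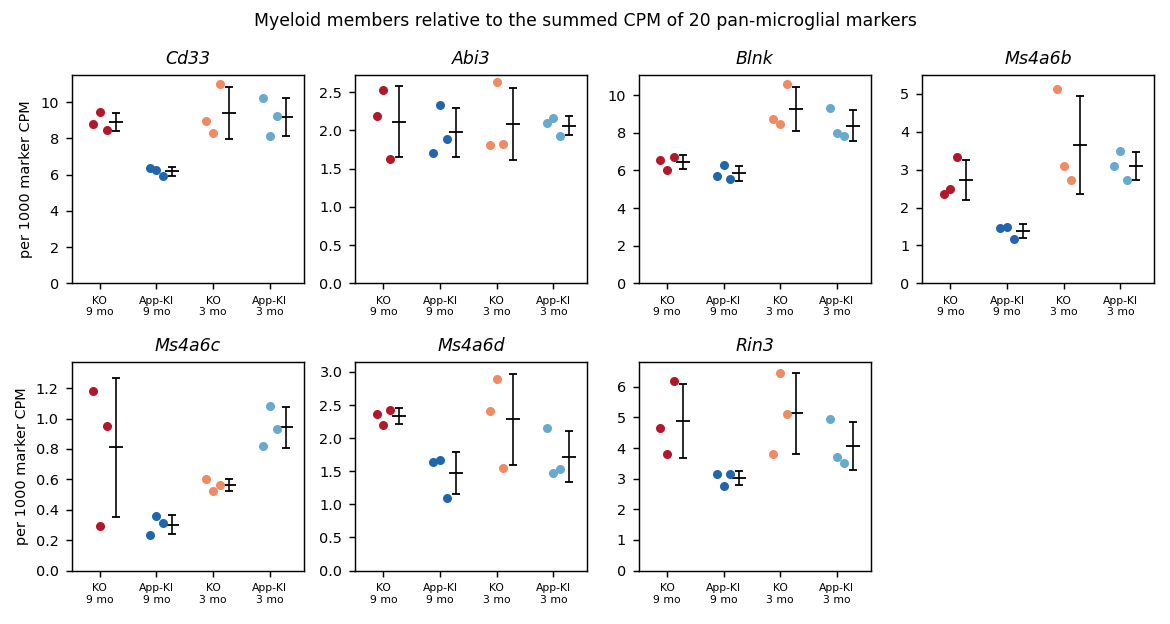
Each myeloid member per 1000 CPM of 20 summed pan-microglial markers (y axis, from 0) in each library (points; 3 per group), with mean and SD, for Trem2-KO and App-KI mice at 9 and at 3 months. The marker sum differs between groups, so an unchanged gene shifts too (median over all genes -1.38 for age in App-KI mice); Cd33 lies at 5.92 to 6.39 in App-KI mice at 9 months, and the Abi3 groups overlap.

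Among the non-myeloid members, Clu and Picalm changed with age. Clu, the secreted chaperone clusterin that astrocytes make in large amounts, stood at 1473, 1535 and 1327 CPM at 9 months against 1124.5, 1188 and 1200.2 CPM at 3 months in Trem2-KO mice. In App-KI mice it stood at 1604, 1459 and 1443 CPM at 9 months against 1154, 1279 and 1167 CPM at 3 months. The older and younger libraries did not overlap in either genotype, and the log2 fold changes were 0.30 ± 0.06 without Trem2 (edgeR adjusted p = 0.00312) and 0.32 ± 0.06 with it (edgeR adjusted p = 0.0015). The interaction for Clu was -0.02 ± 0.08. Of 10 astrocyte markers 5 rose in Trem2-KO and 3 in App-KI mice, with medians over the 10 of 0.20 and 0.12. Gfap had the highest log2 fold change among them (1.63 in Trem2-KO and 1.98 in App-KI mice). The summed level of the 10 markers ran from 5465 to 5917 CPM at 9 months against 4164 to 4298 CPM at 3 months in Trem2-KO mice, and from 6196 to 6634 CPM against 4369 to 4575 CPM in App-KI mice. Their part in the Clu values was not tested.

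Picalm, an adaptor that helps form clathrin-coated vesicles, stood at 81.2, 82.2 and 84.8 CPM at 9 months against 73.9, 65.4 and 73.9 CPM at 3 months in App-KI mice (0.22 ± 0.06, edgeR adjusted p = 0.0364). The call was lost when 1 library was left out in 5 of 12 cases (replicates 2 and 3 at 3 months and each at 9 months, all App-KI), with an edgeR adjusted p of up to 0.211. In Trem2-KO mice Picalm stood at 75.6, 78.2 and 78.8 CPM at 9 months and at 71.9, 72.6 and 64.2 CPM at 3 months, again without overlap, and was not called (0.16 ± 0.06, edgeR adjusted p = 0.122).

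The other non-myeloid genes of endocytosis and sorting were not called in any comparison. Bin1, which curves membranes at endocytic sites and is also abundant in oligodendrocytes, stood at 256 to 284 CPM in Trem2-KO and 283 to 311 CPM in App-KI mice at 9 months (-0.11 ± 0.05, edgeR adjusted p = 0.298). Sorl1, a sorting receptor that carries amyloid precursor protein away from late endosomes, stayed between 161 and 206 CPM in all 12 libraries, with log2 fold changes from -0.08 to 0.04 over the genotype and age comparisons. Rabep1, a partner of Rab5 on early endosomes, ran from 133 to 156 CPM. Cd2ap, an adaptor between membrane receptors and actin, stood at 28.1, 23.6 and 22.6 CPM at 9 months against 22.3, 21.3 and 19.4 CPM at 3 months in Trem2-KO mice, without overlap (0.24 ± 0.09, edgeR adjusted p = 0.111). Of 26 other genes of clathrin-mediated endocytosis, Rin2, a relative of Rin3, rose with age in App-KI mice (0.63 ± 0.06) and in Trem2-KO mice (0.30 ± 0.06) and was lower in Trem2-KO than in App-KI mice at 9 months (-0.26 ± 0.06). The clathrin adaptor subunit Ap2s1 fell with age in App-KI mice (-0.53 ± 0.13), and the rest were not called in any of these comparisons. Of 12 genes of the retromer and related sorting receptors, Vps29 fell with age in Trem2-KO (-0.28 ± 0.05) and App-KI mice (-0.27 ± 0.05).

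**Figure D3:**
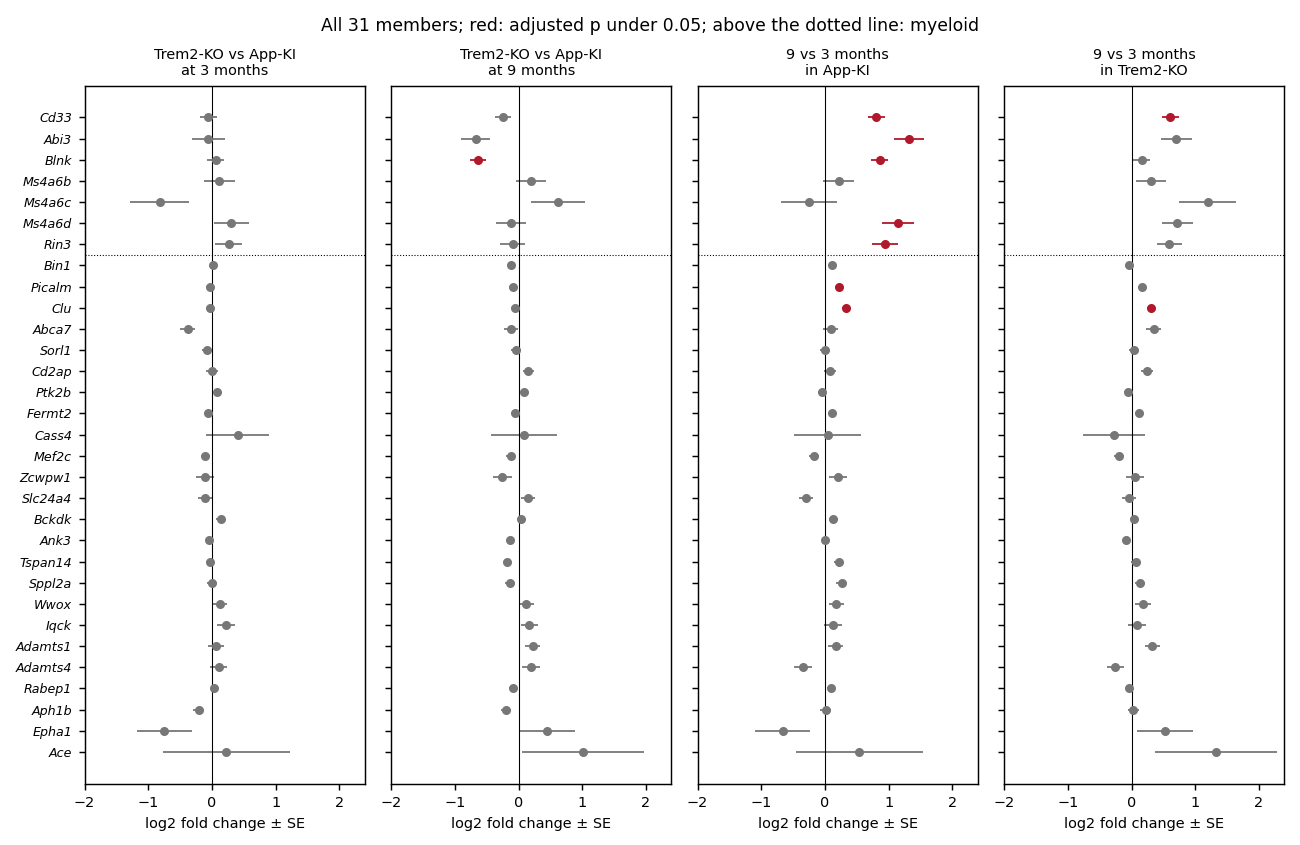
Log2 fold change (x axis) with its standard error for all 31 members (rows), in 4 panels for genotype at 3 and 9 months and for age in App-KI and Trem2-KO mice. Members above the dotted line are myeloid, red marks an adjusted p under 0.05, and the 5 red myeloid points in the App-KI age panel lie between 0.80 and 1.32.

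Abca7, a lipid transporter of the cell membrane, had the smallest p of the non-myeloid members between genotypes at 3 months. It stood at 17.6, 21.1 and 20.9 CPM in Trem2-KO mice against 23.3, 30.3 and 24.5 CPM in App-KI mice, without overlap, and was not called (-0.38 ± 0.12, edgeR adjusted p = 0.178). With the choroid plexus score as a covariate it was called (-0.45, edgeR adjusted p = 0.02), as with no filter on low counts (-0.38, edgeR adjusted p = 0.0108). At 9 months its groups overlapped, at 24.98, 28.8 and 22.6 CPM in Trem2-KO mice and 31.2, 24.9 and 26.8 CPM in App-KI mice (-0.12 ± 0.12). For age in Trem2-KO mice all 9-month libraries of Abca7 lay above all 3-month ones, without a call (0.35 ± 0.12, edgeR adjusted p = 0.0723). It was called without the Trem2-KO 9-month replicate 3 or the App-KI 3-month replicate 2 (edgeR adjusted p = 0.0371 and 0.046), and with the choroid plexus score as a covariate (edgeR adjusted p = 0.0243). No filter on low counts gave a call for age in Trem2-KO mice too (edgeR adjusted p = 0.00531).

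Of the genes that cut proteins, Aph1b, a subunit of the gamma-secretase complex, stood at 48.5, 48.1 and 52.9 CPM in Trem2-KO mice against 62.0, 57.8 and 53.4 CPM in App-KI mice at 3 months. These groups did not overlap (-0.21 ± 0.08, edgeR adjusted p = 0.32). At 9 months Aph1b stood at 56.2, 47.9 and 48.2 CPM in Trem2-KO mice and at 52.5, 57.2 and 65.3 CPM in App-KI mice, with overlap (-0.20 ± 0.08, edgeR adjusted p = 0.287). Its value is uncertain because 18.4% of the 50-base stretches of its transcripts also occur in its copy Aph1c. Of 8 tested genes among the other gamma-secretase subunits and related proteases, edgeR called 0 in each of the 5 comparisons, with at most 2 at an unadjusted p under 0.05.

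Tspan14, a tetraspanin that guides the protease ADAM10, stood at 38.0, 38.7 and 41.6 CPM in Trem2-KO mice against 42.9, 45.9 and 44.9 CPM in App-KI mice at 9 months (-0.18 ± 0.07, edgeR adjusted p = 0.207). In App-KI mice at 3 months it stood at 40.3, 38.0 and 36.8 CPM, without overlap with 9 months (0.21 ± 0.07, edgeR adjusted p = 0.0565), and it was called with the choroid plexus or the meningeal fibroblast score as a covariate (edgeR adjusted p = 0.037 and 0.0397). Sppl2a, a protease that cuts within the membrane, stood at 47.1, 48.2 and 43.9 CPM in Trem2-KO mice against 49.9, 52.3 and 49.9 CPM in App-KI mice at 9 months (-0.13 ± 0.08). Its 9-month App-KI libraries all lay above the 3-month ones, at 41.5 to 43.3 CPM (0.26 ± 0.08, edgeR adjusted p = 0.0611).

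Adamts1, a matrix protease of vessels and astrocytes, stood at 45.1, 48.5 and 34.8 CPM at 9 months and at 34.0, 36.0 and 32.5 CPM at 3 months in Trem2-KO mice (0.33 ± 0.12, edgeR adjusted p = 0.107). It was called without 9-month replicate 3 (0.44, edgeR adjusted p = 0.00654), the library lowest in Adamts1 and, at 83.8 CPM, in choroid plexus markers within its group. It was also called with the choroid plexus score as a covariate (0.30, edgeR adjusted p = 0.0376) and with no filter on low counts (0.33, edgeR adjusted p = 0.00139). Adamts4, an aggrecan-cutting protease found in oligodendrocytes, had -0.25 ± 0.14 in Trem2-KO and -0.35 ± 0.14 in App-KI mice for age and was not called.

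**Figure D4:**
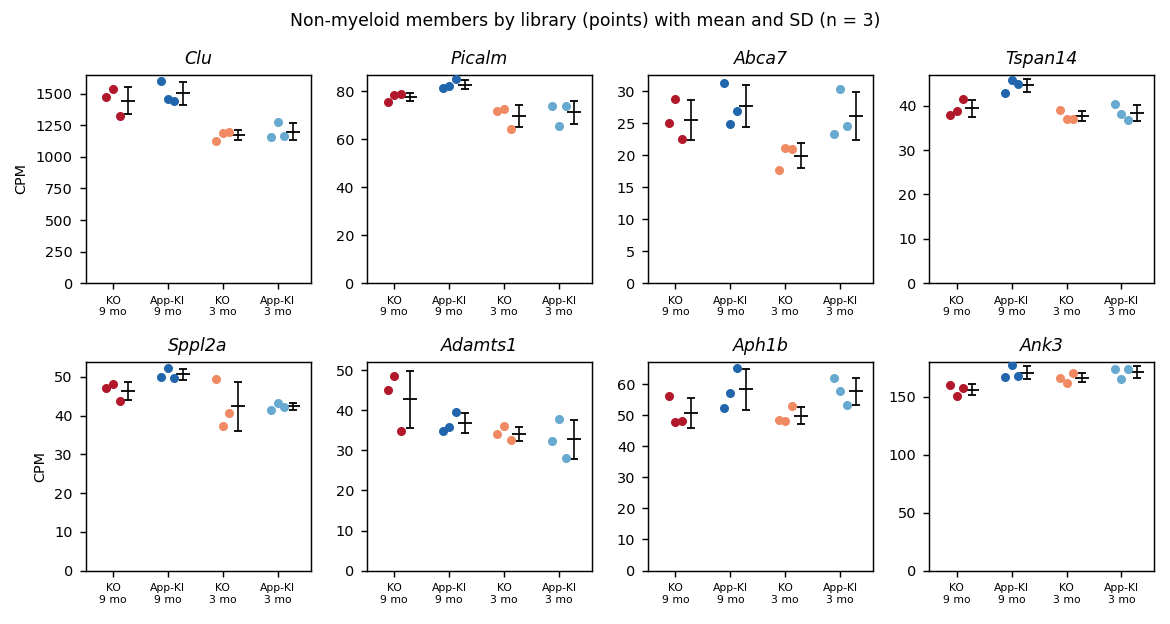
CPM of 8 non-myeloid members (y axis, from 0) in each library (points; 3 per group) with the group mean and SD, for Trem2-KO and App-KI mice at 9 and at 3 months. Clu at 9 months lies at 1327 to 1604 CPM over both genotypes, above the 1124.5 to 1279 CPM at 3 months.

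Ace, the angiotensin-converting enzyme, differed most between libraries of the same group and is described for that reason, having been chosen after its values were seen. It stood at 128, 134 and 17.4 CPM in Trem2-KO and at 65.3, 11.4 and 62.4 CPM in App-KI mice at 9 months. At 3 months it stood at 26.2, 52.4 and 31.7 CPM in Trem2-KO and at 9.87, 69.5 and 18.2 CPM in App-KI mice. Choroid plexus markers moved with it: their sum was 3211, 2552 and 83.8 CPM in Trem2-KO mice at 9 months and 1275, 53.1 and 1348 CPM in App-KI mice of that age. At 3 months the sum was 716, 1354 and 849 CPM in Trem2-KO and 64.5, 1787 and 457 CPM in App-KI libraries. The 3 libraries lowest in choroid markers were also the 3 lowest in Ace.

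The spread left the 4 comparisons of Ace without a call, with standard errors of 0.95 to 0.996 on the log2 scale. With the choroid plexus score as a covariate, the standard errors were 0.17 to 0.18. In that fit the difference between genotypes was 0.26 ± 0.17 at 9 months and -0.14 ± 0.18 at 3 months. The age difference was 0.73 ± 0.17 in Trem2-KO mice, which passed edgeR's test (adjusted p = 0.0233), and 0.33 ± 0.18 in App-KI mice, which did not (edgeR adjusted p = 0.393). This fit has 1 residual degree of freedom fewer, and a score measured from the same libraries does not replace dissection without choroid plexus.

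**Figure D5:**
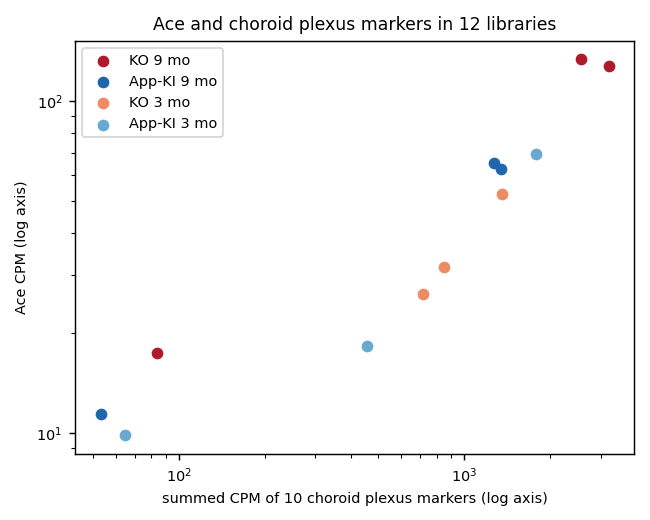
Ace CPM (y axis, log scale) against the summed CPM of 10 choroid plexus markers (x axis, log scale) in the 12 libraries, coloured by group. The 3 libraries with sums of 53.1 to 83.8 CPM have 9.87 to 17.4 CPM of Ace, and the 2 with the highest sums, 3211 and 2552 CPM, have 128 and 134 CPM in that order.

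The other members were not called in any comparison. Ptk2b, a calcium-activated kinase abundant in hippocampal neurons, ran from 967 to 1163 CPM in the 12 libraries, and its log2 fold changes over the 4 comparisons between groups lay between -0.06 and 0.09. Mef2c, a transcription factor of neurons and microglia, stood at 123 to 148 CPM at 9 months and 139 to 167 CPM at 3 months in Trem2-KO mice (-0.19 ± 0.08) and at 141 to 154 CPM against 155 to 180.1 CPM in App-KI mice (-0.17 ± 0.08). Ank3, the scaffold of the axon initial segment, stood at 160.1, 151 and 157 CPM in Trem2-KO against 167, 177 and 168 CPM in App-KI mice at 9 months, without overlap (-0.13 ± 0.05, edgeR adjusted p = 0.189). Fermt2, an integrin activator, ran from 86.7 to 103 CPM, and Bckdk, the kinase that restrains branched-chain amino acid breakdown, from 51.5 to 64.0 CPM; at 3 months Bckdk stood at 55.0, 60.8 and 63.9 CPM in Trem2-KO and at 54.8, 51.5 and 57.5 CPM in App-KI mice, with overlap (0.13 ± 0.07).

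Slc24a4, a sodium, calcium and potassium exchanger, ran from 12.8 to 20.04 CPM and Wwox, an oxidoreductase with WW domains, from 11.5 to 18.0 CPM. Iqck ran from 6.43 to 10.3 CPM and Zcwpw1, a histone reader known from meiosis, from 5.83 to 8.72 CPM. Both overlap neighbours on the opposite strand, so their counts are uncertain. The same holds for Cass4 (21.2% of its exon bases, with Gm14455) and Epha1 (6.01%, with Zyx). Summed over the libraries, Gm14455 had 124 counts against 96 for Cass4, and Zyx had 10045 against 150 for Epha1. Cass4, a scaffold of focal adhesions with at most 13 counts in a library, and Epha1, an ephrin receptor with at most 23, were too low for firm statements: their standard errors were 0.43 to 0.53 on the log2 scale over the 4 comparisons between groups.

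Relatives of the myeloid receptors were counted from lists of family members. Of 7 other Siglec family genes 6 were tested. With age 3 of them rose in App-KI mice (Siglech, Cd22 and Siglecf) and 2 in Trem2-KO mice (Siglech and Cd22), and at 9 months 2 fell in Trem2-KO against App-KI mice (Siglech and Siglecf). Siglech, a microglial receptor that couples to Tyrobp, averaged 27.9 ± 0.491 CPM in Trem2-KO and 39.3 ± 3.70 CPM in App-KI mice at 9 months (SD, n = 3 each), a log2 fold change of -0.49 ± 0.09 with an edgeR adjusted p of 0.002. Of 15 other MS4A genes only 2 had enough counts to test and edgeR called 0 of them in each of the 5 comparisons; the border macrophage gene Ms4a7 averaged 1.14 ± 0.263 CPM in Trem2-KO and 0.535 ± 0.179 CPM in App-KI mice at 9 months (SD, n = 3 each). Of 22 other risk locus genes 20 were tested. With age 10 of them rose in App-KI and 7 in Trem2-KO mice, where 3.95% and 5.68% of all genes did. Both counts include Trem2, the deleted gene, whose remaining reads had a log2 fold change of 0.90 ± 0.14 in Trem2-KO mice. At 9 months 5 were lower in Trem2-KO than in App-KI mice, where 1.39% of all genes were. These were Trem2 as the deleted gene, Inpp5d, Grn, Ctsh and Ctsb.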

How the data were processed

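The authors deposited raw read counts per gene for 12 hippocampal libraries, without normalisation, as the values show. Build GRCm39, DESeq2 1.36.0, featureCounts 2.0.3, R 4.2.0 and STAR 2.7.10a are listed in the submitters' processing notes without roles, and the labels' protocols name the SMART-Seq mRNA LP kit. For the strand setting and for reads that match more than 1 gene, the method is not given in the sources used here. Symbols came from GENCODE M21 on another build and matched 52073 of 56980 identifiers.

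A filter on low counts (filterByExpr in edgeR 4.0.16 under R 4.3.3, at least 10 counts in enough libraries and 15 in total) kept 19152 genes, and TMM set the scale. Groups were compared by the robust quasi-likelihood fit of edgeR, 1 term per group over the 12 libraries, leaving 8 residual degrees of freedom. P-values were adjusted by Benjamini-Hochberg over the genes kept. CPM use the scaled library sizes. Printed log2 fold changes are edgeR's moderated ones, and standard errors come from the unmoderated change and the F statistic. The test was tried on simulated data. The alternatives used DESeq2 1.42.0, other scaling, no filter, covariates, fewer groups and fewer libraries.

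Replicates carry separate identifiers in the labels and were numbered in accession order. The members, lists, tests and promoter motif were chosen with earlier results of these data known. Values per library are given for members that were called, for the 7 myeloid members and for the 3 non-myeloid members with the smallest p in each of the 4 comparisons between groups; Sppl2a, Adamts4 and the members given by ranges were added to complete the account.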

Additional observations from a re-analysis of the deposited data

How the results depend on the processing

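Depth limits the members with few counts, among them Cass4, Epha1 and Ms4a6c. No paired analysis was possible because the labels give no replicate number shared between groups. The calls of Cd33, Abi3, Blnk, Rin3 and Clu for age in App-KI mice held under all 18 alternatives.

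With no filter on low counts, 347 genes and 1 member were called for genotype at 3 months, 831 genes at 9 months, 6 members for age in Trem2-KO and 187 genes for the interaction. DESeq2 called 261 genes at 3 months and 102 for the interaction, and a fit of the groups compared alone called 218 at 3 months. With the choroid plexus score as a covariate, 177 genes and 1 member were called at 3 months, 5 members for age in Trem2-KO and 82 genes for the interaction. With the meningeal fibroblast score as a covariate, 32 genes and 0 members were called between genotypes at 9 months (myeloid median -0.52, non-myeloid median -0.10), 55 genes and 0 members for age in Trem2-KO (0.16 and 0.0218), and 3 genes for the interaction (-0.45 and -0.0666). The signs of Ms4a6c between genotypes at 9 months (-0.30) and of Ms4a6b (-0.50) and Ms4a6d (-0.0091) for age in Trem2-KO turned in that fit; the cause was not tested. With the broad myeloid list the myeloid median was 0.53 for age in App-KI, 0.45 for age in Trem2-KO and -0.26 for the interaction.

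Leaving out 1 library at a time gave 26 to 154 genes for genotype at 3 months, 175 to 556 at 9 months with 0 to 1 members, 788 to 1523 for age in App-KI, 769 to 1920 for age in Trem2-KO with 2 to 5 members, and 29 to 76 for the interaction. The myeloid median then ran from -0.27 to -0.0934 between genotypes at 9 months, from 0.54 to 0.78 for age in Trem2-KO and from -0.50 to -0.20 for the interaction. The non-myeloid median ran from -0.0485 to 0.0200 between genotypes at 3 months, from -0.0544 to 0.0102 at 9 months, from 0.0666 to 0.11 for age in App-KI and from -0.0466 to 0.0109 for the interaction. The median ratio to microglial markers ran from 0.10 to 0.23 between genotypes at 3 months, from 0.50 to 0.72 at 9 months, from -0.57 to -0.44 for age in App-KI and from -0.13 to 0.13 for age in Trem2-KO. Among counts of all genes, each of the 6 libraries compared at 3 months moved the count by over 1.5 times when left out; at 9 months this held for App-KI replicates 1 (241 genes) and 3 (175) and Trem2-KO replicate 1 (213). For age in App-KI it held for 9-month replicates 1 (794) and 2 (788) and 3-month replicate 3 (811), and for age in Trem2-KO for 9-month replicate 2 (932) and 3-month replicates 2 (1042) and 3 (769).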
